A study of Mus musculus with 35 samples.

Results

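The 9 genes described here carry 2 lipid signals, sphingosine 1-phosphate (S1P) and lysophosphatidic acid (LPA), between cells of the embryonic mouse brain. They were chosen by name and are 9 of the 53465 genes in the bulk table: Sphk1, Spns2 and Enpp2, which make or release the lipids, the S1P receptors S1pr1, S1pr2 and S1pr3, and the LPA receptors Lpar1, Lpar4 and Lpar6. Neural, mural, endothelial and microglial cells were sorted from 3 wild-type brains at E14.5, and each population of each brain gave 1 bulk RNA-seq library, 12 in all. Library names join the population and the brain, as in Mu-340, Mu-343 and Mu-346, and the 3 values of a population are always given in that order of brains. Single wild-type cells of the same 4 kinds were sorted into wells on 3 plates and sequenced by mCEL-Seq2, a method that counts transcripts at their 3' ends with molecular identifiers. The study states that these cells also came from 3 wild-type brains, but the labels do not say which brain a well or plate held, so tests over plates measure the spread between plates, which may be technical. The mouse strain is not given in the sources used here. In the wells, the mural gate was high for PDGFRβ and the endothelial gate high for PECAM1 and CD102. The microglial gate was medium for CD45 and, in the labels, positive for CD41, with low PDGFRβ and PECAM1. The neural gate was negative for all of these, so neural here means what was left after the other cells were removed.

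S1P is made inside cells from sphingosine by a sphingosine kinase, is carried out of the cell by transporters such as Spns2, and acts on G protein-coupled receptors at the surface of the same or of neighbouring cells. LPA is made outside cells, largely by the secreted enzyme autotaxin, the product of Enpp2, and has receptors of its own. In blood vessels, S1P signalling through S1pr1 is known to steady the junctions between endothelial cells, while S1pr2 and S1pr3 are the receptors usually described in mural cells.

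The bulk libraries held between 17638358 and 98414914 reads on genes. A level of 3 reads, used as the floor where all libraries of a population were at 0, came to between 0.793 and 5.32 normalized counts. The tests took lower values as listed. Of 994 wells in the 4 gates, 686 had more than 1500 transcripts and were kept: 225 endothelial, 210 mural, 128 microglial and 123 neural wells, with median depths of 6408, 6885, 10761 and 7717 transcripts. Plate 3 added only 6 to 14 wells to each gate. The wells came from 11 libraries that shared 192 well barcodes, each barcode used in at most 6 libraries, and 0 kept wells held the same values as another. Each population carried its own marker genes, the 6 mural markers summing to between 691750 and 742741 normalized counts in mural libraries, the 5 endothelial markers to between 142574 and 159138 in endothelial ones and the 6 microglial markers to between 183035 and 213836 in microglial ones. Mural libraries also held markers of other cells. Fibroblast markers summed to between 5640 and 7754 normalized counts against at most 236 elsewhere, and all but 440 to 905 of the mural sum was Col3a1. The 6 neural markers summed to between 20087 and 38372 in mural libraries, of which all but 1691 to 3530 was Fabp7, a marker of neural progenitors. The other 5 summed to between 1364 and 2145 in endothelial and between 1561 and 2558 in microglial libraries, ranges that overlap the mural one. Markers of border macrophages summed to between 8983 and 11743 in microglial libraries against at most 994 elsewhere, and their part in the microglial results was not tested. Erythroid markers summed to between 12983 and 33504 in endothelial, 8751 and 11469 in neural, 1609 and 2073 in microglial and 152 and 598 in mural libraries. Neural RNA was extracted and made into libraries with other kits than the other 3 populations, so population and kit cannot be told apart wherever a neural value is set against the rest, and in bulk samples fewer cells of a type and less RNA per cell cannot be told apart either.

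The endothelial libraries held the highest mean level of S1pr1, Spns2, Enpp2, Lpar4 and Lpar6, the mural libraries that of S1pr3, S1pr2 and Lpar1, and Sphk1 was low in every population. Against the mean of the other 3 populations, in limma fits over all 19765 genes tested, 5 of the 9 members were higher in endothelial cells and 1 was lower at an adjusted p under 0.05, where 19.7% and 22.4% of all genes were. In mural cells 4 were higher and 3 lower, against 19.3% and 22.7% of all genes. In neural cells 1 was higher and 3 lower, against 32.9% and 31.2%, and in microglia 1 was higher and 4 lower, against 23.4% and 22.3%. The median difference of the 9 members on the log2(normalized count + 1) scale was 1.43 in endothelial cells, 0.94 in mural cells and -2.15 in microglia, where the medians of all genes tested were -0.12, -0.10 and -0.02. The neural median was 0.80 against 0.09 for all genes, and it came to 0.24 when S1pr3, which had no read in any endothelial library, was set there to 3 reads in each library. All 9 members passed the filter on low values. Those more than 10-fold higher were Enpp2, Lpar4 and S1pr1 in endothelial cells, where 6.28% of all genes passed that limit, and S1pr3 in mural cells, where 4.99% did. In endothelial cells these members had every library above the 9 others, which was true of 6.28% of all genes there. The highest members elsewhere, Spns2 in neural cells (2.73 on the log2 scale) and S1pr1 in microglia (1.52), stayed under 10-fold, a limit that 13.8% and 8.27% of all genes passed. No member had every neural or every microglial library above the 9 others, as 25.2% and 11.5% of all genes did.

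**Figure D1:**
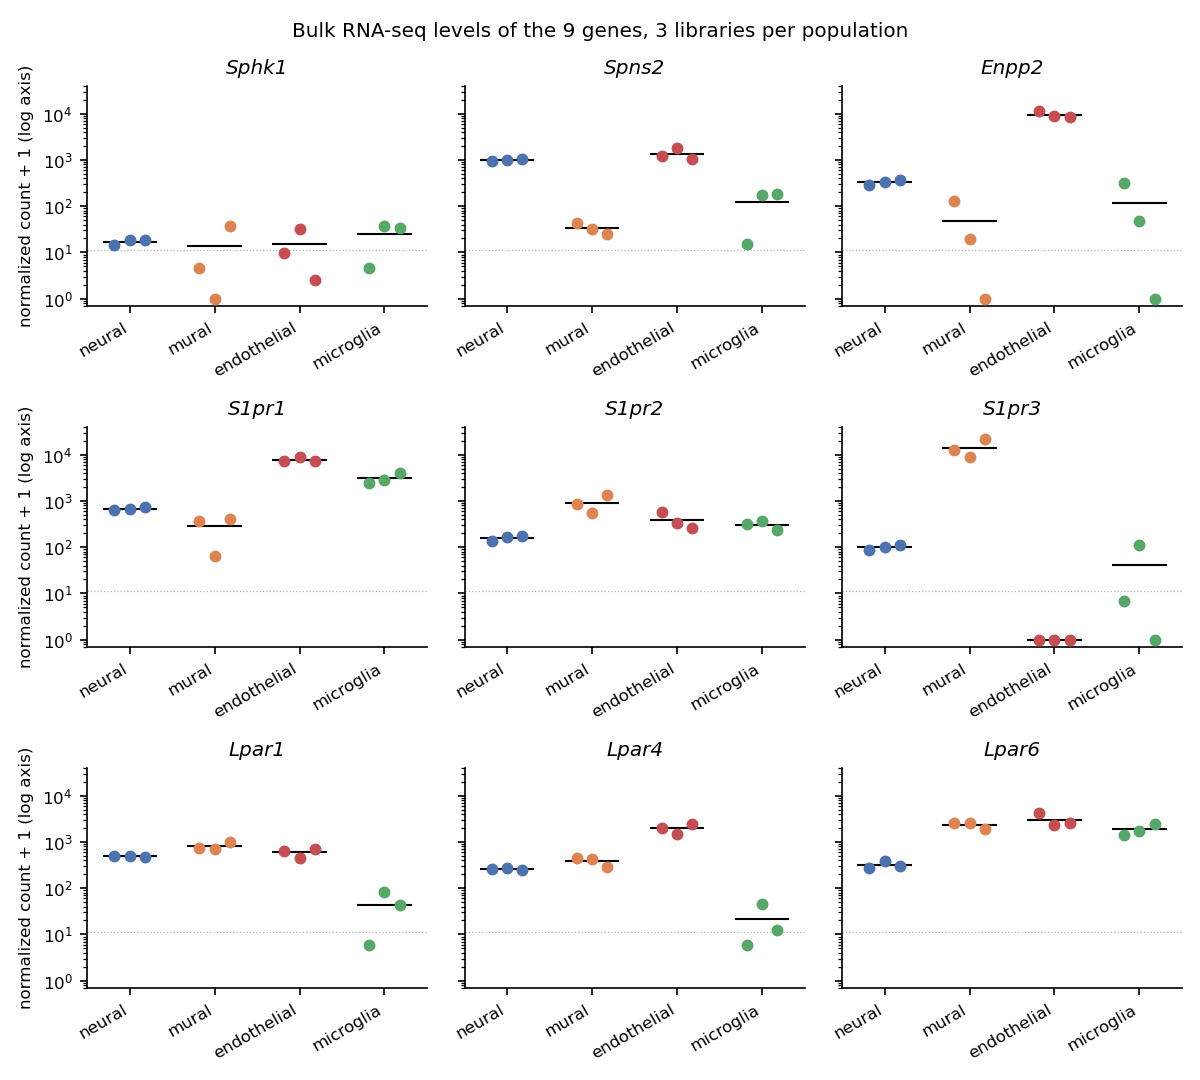
Normalized counts of the 9 members in the 12 bulk libraries, plotted as 1 point per library on a log scale of normalized count + 1, by population, with the mean of each as a black line; the dotted line marks a count of 10. S1pr3 lies between 8786 and 21834 in mural libraries and at 0 in endothelial ones, Enpp2 lies at or above 8562 in endothelial libraries only, and Sphk1 stays at or below 36.8 throughout.

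Taken pair by pair, mural and endothelial cells differed in 6 of the 9 members, where 27.8% of all genes passed the same limma test, mural cells and microglia in 5 (38% of all genes), endothelial cells and microglia in 4 (32.4%), neural and mural cells in 5 (54.6%), neural and endothelial cells in 5 (57.7%) and neural cells and microglia in 6 (59.8%). Libraries of the pair did not overlap at all for 5 members between mural and endothelial cells (35% of all genes), 5 between mural cells and microglia (47.8%), 5 between endothelial cells and microglia (39%), 8 between neural and mural cells (71.5%), 6 between neural and endothelial cells (69.6%) and 6 between neural cells and microglia (77.9%). Sphk1 was the member that overlapped in every pair.

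Sphk1, the sphingosine kinase that makes S1P in many cell types, lies on chromosome 11 (116530925 to 116536674, GRCm38). It was listed at 13.4, 17.2 and 17.4 normalized counts in neural libraries, at 8.86, 31.2 and 1.51 in endothelial ones, at 3.57, 36.8 and 32.7 in microglial ones and at 3.50, 0 and 35.7 in mural ones. The 4 populations overlapped throughout, and Sphk1 passed the test in none of them. In the wells it gave 1 transcript among 123 neural wells and 1 among 210 mural wells, and 0 of 225 endothelial wells, which allows up to 1.63% of such wells to hold a transcript (upper bound of the exact Clopper-Pearson 95% interval) and sets no limit on the cells that express the gene. The bulk libraries held between 0 and 66 reads of Sphk1. The other sphingosine kinase, Sphk2, had 1245, 1248 and 1336 normalized counts in neural libraries and 1359, 1211 and 889 in microglial ones, against at most 620 in endothelial and 202 in mural libraries. It was higher in neural cells (log2 difference 1.82 ± 0.45 SE, limma adjusted p = 0.00458) and in microglia (1.60 ± 0.45, limma adjusted p = 0.014). The sums of wells gave the microglial call (1.77 ± 0.35, edgeR adjusted p = 2.25e-05) and not the neural one (0.16 ± 0.41, edgeR adjusted p = 0.793).

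Spns2, the transporter that exports S1P, is encoded on chromosome 11 (72451638 to 72489904, minus strand) and shares 131 bp of its exons with Mybbp1a on the opposite strand. Its levels were 1237, 1786 and 1048 normalized counts in endothelial libraries, 939, 984 and 1071 in neural ones, 14.3, 174 and 181 in microglial ones and 41.5, 30.8 and 24.4 in mural ones. Endothelial and neural libraries overlapped and lay above all the others. Relative to the mean of the other populations, Spns2 was higher in endothelial cells (log2 3.28 ± 0.64, limma adjusted p = 0.00215) and in neural cells (2.73 ± 0.64, limma adjusted p = 0.0034) and lower in mural cells (-3.85 ± 0.64, limma adjusted p = 0.000739). It was also lower in microglia by the same test (-2.15 ± 0.64, adjusted p = 0.0184), a call that edgeR on the whole reads did not make (-1.55, adjusted p = 0.0597). Without library Mi-340 the microglial value was -0.97 (adjusted p = 0.0239). Erythroid markers had the same order of populations as Spns2 in bulk, and their part in its levels was not tested. The difference between endothelial and neural cells missed the threshold (neural minus endothelial -0.41 ± 0.79, limma adjusted p = 0.681).

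The wells gave another order for Spns2. A transcript was found in 79 of 225 endothelial wells, or 35.1% (exact 95% interval 28.9 to 41.7%), but in only 8 of 123 neural wells, or 6.50% (2.85 to 12.4%), a share close to the 7.81% of microglial wells. Summed over wells, Spns2 came to 73.8 CPM (transcripts scaled to equal totals) in endothelial and 10.4 in neural wells, and the sums per plate were lower in neural cells (neural minus endothelial -2.89 ± 0.49, edgeR adjusted p = 1.76e-06). The bulk and well measurements of neural cells differed in kit and in the part of the transcript read, and the part of either in this difference was not tested.

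Enpp2, the gene of autotaxin, lies on chromosome 15 (54838901 to 54952892, minus strand). Endothelial libraries held 11277, 8859 and 8562 normalized counts, neural libraries 288, 338 and 359, microglial libraries 309, 46.2 and 0, and mural libraries 125, 18.3 and 0. Every endothelial library was above all 9 others. Per transcript length, Enpp2 reached 53.8 ± 7.73 RPKM (SD, n = 3) in endothelial cells and at most 2.24 RPKM as the mean of any other population. The endothelial difference from the mean of the others was 7.64 ± 1.60 on the log2 scale (limma adjusted p = 0.00319), although the endothelial and neural libraries, which did not overlap, missed the threshold against each other (neural minus endothelial -4.85 ± 1.96, limma adjusted p = 0.0532). With the brain as a block this pair passed (limma adjusted p = 0.0246), as did a lower level in microglia (-3.83, limma adjusted p = 0.0358) and the neural excess over mural cells (4.61, limma adjusted p = 0.0321 against 0.0676 without the block). The endothelial and neural pair also passed with a pseudocount of 5 (limma adjusted p = 0.00972) and with quantile normalization (limma adjusted p = 0.0416). It passed by edgeR on the whole reads too (-4.81, adjusted p = 0.0161), though not in every alternative fit. The lower mural level (-4.98, limma adjusted p = 0.0279) was not called without library Mu-346, where it was smaller (-3.10, adjusted p = 0.155), or without Mu-343, where it was not (-5.24, adjusted p = 0.0663). In the wells, Enpp2 was found in 119 of 225 endothelial wells, or 52.9% (46.1 to 59.6%), and in 2.44% of neural, 3.13% of microglial and 0.476% of mural wells. Markers of choroid plexus epithelium, another tissue known to make autotaxin, summed to between 89.0 and 308 normalized counts in endothelial, 21.6 and 140 in mural, 57.0 and 72.1 in neural and 0 and 74.3 in microglial libraries. At least 1 transcript of them was found in 2.67% of endothelial and 2.44% of neural wells.

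S1pr1, the S1P receptor best known from endothelial cells, lies on chromosome 3 (115710433 to 115715072, minus strand). Its levels were 7179.8, 8961 and 7476 normalized counts in endothelial libraries, 2408, 2787 and 4032 in microglial ones, 630.3, 685 and 728 in neural ones and 377, 63.9 and 406 in mural ones. The 4 populations formed an order without overlap. S1pr1 was higher than the mean of the others in endothelial cells (log2 3.36 ± 0.46, limma adjusted p = 0.000214) and lower in mural cells (-3.55 ± 0.46, limma adjusted p = 0.000143). In microglia it was higher (1.52 ± 0.46, limma adjusted p = 0.0196), though not without library Mi-343 (adjusted p = 0.0549) or Mi-346 (adjusted p = 0.0918), and in neural cells it was lower (-1.33 ± 0.46, limma adjusted p = 0.0253), though not without any 1 of the neural libraries (adjusted p = 0.0825, 0.0703 and 0.0642 in the order of brains). The difference between endothelial cells and microglia missed the threshold (1.38 ± 0.56, limma adjusted p = 0.0853), and it passed without library Mu-343, the lowest one (adjusted p = 0.000374), and by DESeq2 on the whole reads (1.36, adjusted p = 0.0394). Neural cells exceeded mural cells (1.66 ± 0.56, limma adjusted p = 0.0274), but not with quantile normalization (1.21, adjusted p = 0.0986), by edgeR on the whole reads (1.25, adjusted p = 0.0538) or without any 1 of the neural libraries (adjusted p = 0.0582, 0.0652 and 0.0728), and without library Mu-343 it was 0.80 (adjusted p = 0.0122).

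In the wells, S1pr1 was found in 134 of 225 endothelial wells, or 59.6% (52.8 to 66.0%), in 55 of 128 microglial wells, or 43.0% (34.3 to 52.0%), and in 8.13% of neural and 3.33% of mural wells. The microglial wells were the deepest, and after every well was thinned to 1500 transcripts the shares were 22.7% and 9.38%. In sums per plate S1pr1 was higher in endothelial cells than in microglia (1.21 ± 0.28, edgeR adjusted p = 0.000369), with 193 and 72.3 CPM over all wells.

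S1pr2 and S1pr3 had their highest mean level in mural cells. Their promoters, the 250 bases before the start of each gene in RefSeq (GRCm38.p6), are shown because both genes were higher in the same population. Capitals mark matches, on either strand, to the GC box GGGCGG, the ETS motif CCGGAA, the TATA box TATAAA and the cAMP response element TGACGTCA. They lie at chr9:20976794-20977043 (minus strand) and chr13:51408368-51408617 (plus strand).
S1pr2: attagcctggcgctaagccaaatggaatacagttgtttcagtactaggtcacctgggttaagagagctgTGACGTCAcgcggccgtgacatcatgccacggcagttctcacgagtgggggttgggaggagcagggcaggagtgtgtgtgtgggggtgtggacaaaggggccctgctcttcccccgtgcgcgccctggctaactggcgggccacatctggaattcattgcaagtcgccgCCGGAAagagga
S1pr3: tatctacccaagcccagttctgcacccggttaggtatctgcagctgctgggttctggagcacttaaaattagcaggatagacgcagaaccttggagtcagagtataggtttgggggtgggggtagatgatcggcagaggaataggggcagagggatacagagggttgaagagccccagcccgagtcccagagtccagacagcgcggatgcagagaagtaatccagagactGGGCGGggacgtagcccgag
The S1pr2 window held 14 CpG and 59.2% GC, the S1pr3 window 9 CpG and 56.4% GC, where the median of 32851 promoters was 6 CpG and 52.4% GC. The cAMP response element began 181 bases before the S1pr2 start and was present in 1.55% of all promoters, and the ETS motif began 12 bases before it, with 12.03% of promoters holding one. The GC box of S1pr3 began 20 bases before its start, and 32.7% of promoters held that motif. The letters shared by both windows were those of the E-box CANNTG, left in lower case, with 4 matches for S1pr2 and 1 for S1pr3, and 66.2% of all promoters held it. None of these matches was tested as a binding site.

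S1pr3 lies on chromosome 13 (51408639 to 51422797). Mural libraries held 12547, 8786 and 21834 normalized counts, neural libraries 86.8, 99.7 and 112, microglial libraries 5.94, 113 and 0, and the 3 endothelial libraries 0 each. Every mural library was above all 9 others, as was the case for 7.25% of all genes tested. The mural mean was at least 3062-fold higher than the endothelial one, counting 3 reads in each endothelial library as the floor, and the difference from the mean of the others was 10.43 ± 1.06 on the log2 scale (limma adjusted p = 2.85e-05), or 9.59 with that floor in place of 0. At 119 ± 61.3 RPKM (SD, n = 3) in mural cells, S1pr3 had the highest mean per length of the 9 members in any population. Library Mu-343, at 68.7 RPKM, nevertheless lay below S1pr1 in the endothelial libraries (75.4 to 98.3 RPKM). The lower level in endothelial cells passed the test (-7.85, limma adjusted p = 0.000199), but its fitted size depends on the pseudocount because all 3 libraries were at 0, and with that floor it came to -5.35. In microglia the lower level (-3.58, limma adjusted p = 0.018) was not called without library Mi-340 (-3.37, adjusted p = 0.0672) or Mi-346 (-1.97, adjusted p = 0.0914), nor by edgeR on the whole reads (-0.42, adjusted p = 0.967). The difference between neural cells and microglia (3.43, limma adjusted p = 0.0404) was not called with the brain as a block (adjusted p = 0.052), by edgeR on the whole reads (1.35, adjusted p = 0.292) or without any 1 of the neural libraries (0.0814, 0.0887 and 0.0966), the mural libraries (0.0549, 0.0513 and 0.0522), library Mi-340 (0.0981) or library Mi-346 (0.143, all adjusted p). Its size stayed between 3.23 and 3.53 in these fits without 1 library, except without Mi-346, where it was 1.83. Without Mi-343 both became larger, the microglial value -5.39 (adjusted p = 0.000231) and this difference 5.24 (adjusted p = 0.000448).

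S1pr2, on chromosome 9 (20962361 to 20976781, minus strand), was present in every population. Its levels were 858, 556 and 1330.0 normalized counts in mural libraries, 572, 335 and 265 in endothelial ones, 317, 365 and 235 in microglial ones and 135, 169 and 171 in neural ones. Library Mu-343 lay just under library Ec-340, so those populations overlapped, and the neural libraries were below all others. S1pr2 was higher in mural cells (log2 1.72 ± 0.32, limma adjusted p = 0.00138) and lower in neural cells (-1.53 ± 0.32, limma adjusted p = 0.00149). The mural excess over endothelial cells alone (1.21 ± 0.39, limma adjusted p = 0.039) was not called with the brain as a block (adjusted p = 0.0661), nor without library Ec-343 (0.087) or Ec-346 (0.111), library Mu-340 (0.0863) or Mu-346 (0.132) or any 1 of the neural libraries (0.0547, 0.0579 and 0.0574, all adjusted p). The lower neural level against endothelial cells (-1.23 ± 0.39, limma adjusted p = 0.0186) was not called without the endothelial (0.0658) or the neural library (0.0629) of the first brain.

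In the wells both receptors were again mural. S1pr3 was found in 141 of 210 mural wells, or 67.1% (60.3 to 73.5%), and in 2.22% of endothelial, 1.63% of neural and 0.781% of microglial wells, and S1pr2 in 47 mural wells, or 22.4% (16.9 to 28.6%), and in 3.11%, 1.63% and 6.25% of those. Of the 47 mural wells with S1pr2, 38 also held S1pr3, and those 38 were 27.0% of the 141 wells with S1pr3. By plate, S1pr3 came to 185, 291 and 124 CPM in mural wells and S1pr2 to 44.3, 43.7 and 27.5. Sums per plate were higher in mural cells for S1pr3 (log2 6.20 ± 0.36, edgeR adjusted p = 1.09e-21; 8.19 without plate 1 and 5.05 without plate 2) and S1pr2 (3.29 ± 0.45, edgeR adjusted p = 1.88e-08). S1pr2 also exceeded endothelial sums there (3.16 ± 0.57, edgeR adjusted p = 1.18e-05).

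Fibroblast markers moved with these receptors among mural wells. At least 1 transcript of Col1a1, Col3a1, Dcn or Pdgfra, the 4 of the 5 markers listed in the tables of these wells (Lum was not), was found in 154 of 210 mural wells, or 73.3%, against 5.69 to 7.81% of wells in the other gates. S1pr3 was found in 76.6% of those 154 wells (69.1 to 83.1%) and in 41.1% of the 56 mural wells without such a transcript (28.1 to 55.02%). S1pr2 was found in 27.3% (20.4 to 35.0%) and 8.93% (2.96 to 19.6%). The wells with a fibroblast marker transcript were deeper, with a median of 7373 against 5028 transcripts, and the part of depth or of fibroblasts in these shares was not tested. Lpar4 had 16.9% and 16.1% in the same wells.

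**Figure D2:**
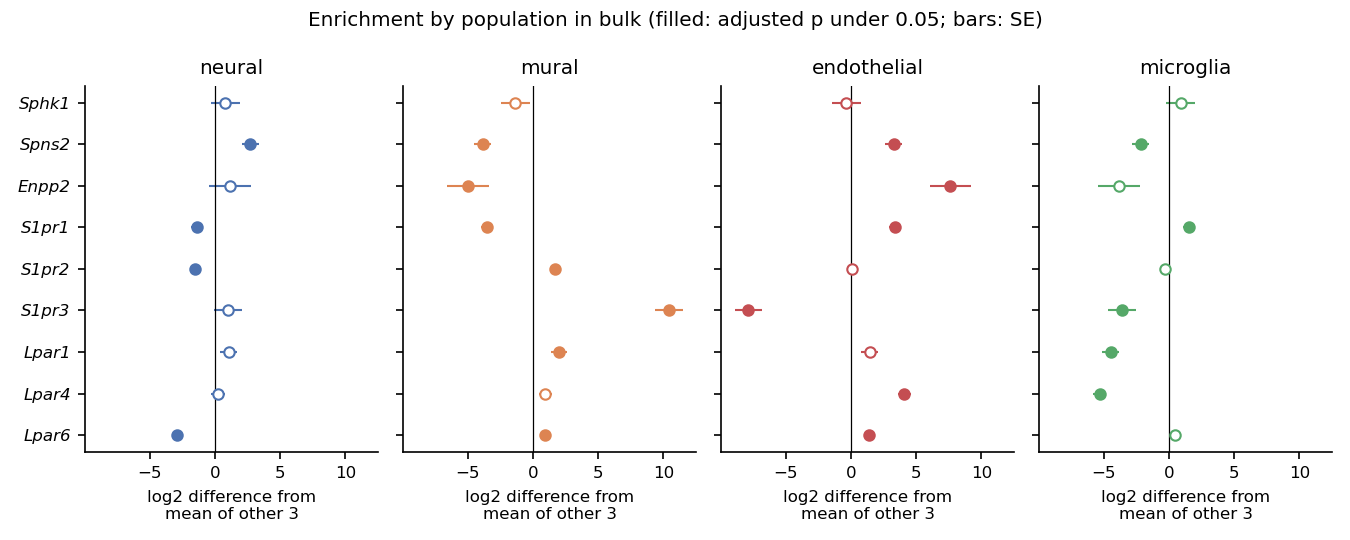
Difference of each member between 1 population and the mean of the other 3, on the log2(normalized count + 1) scale, with standard errors from limma as bars and 1 panel per population. Filled points passed an adjusted p of 0.05, and S1pr3 in mural cells (10.43) and Enpp2 in endothelial cells (7.64) lie farthest to the high side, and S1pr3 in endothelial cells (-7.85, where all 3 libraries were at 0) farthest to the low side.

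Summed per length over the 5 S1P receptors, S1pr1 to S1pr5, receptor transcripts came to 127 ± 65.1 RPKM (SD, n = 3) in mural cells, 89.2 ± 12.6 in endothelial cells, 35.5 ± 11.04 in microglia and 10.6 ± 0.71 in neural cells. Mural cells were composed differently from the rest. S1pr3 made up 93.9 ± 1.38% of the mural sum and S1pr1 2.55%, while S1pr1 made up 94.4 ± 0.82% of the endothelial, 87.6 ± 2.42% of the microglial and 83.1 ± 0.58% of the neural sum. S1pr4, known from blood cells, took 7.94% of the sum in microglia and 3.78% in endothelial cells. It was listed at 145, 267 and 330.3 normalized counts in endothelial libraries and 191, 189 and 266 in microglial ones, and at or below 0.554 in the other libraries. Erythroid markers, given above, were highest in endothelial and border macrophage markers in microglial libraries, and their part in S1pr4 was not tested.

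**Figure D3:**
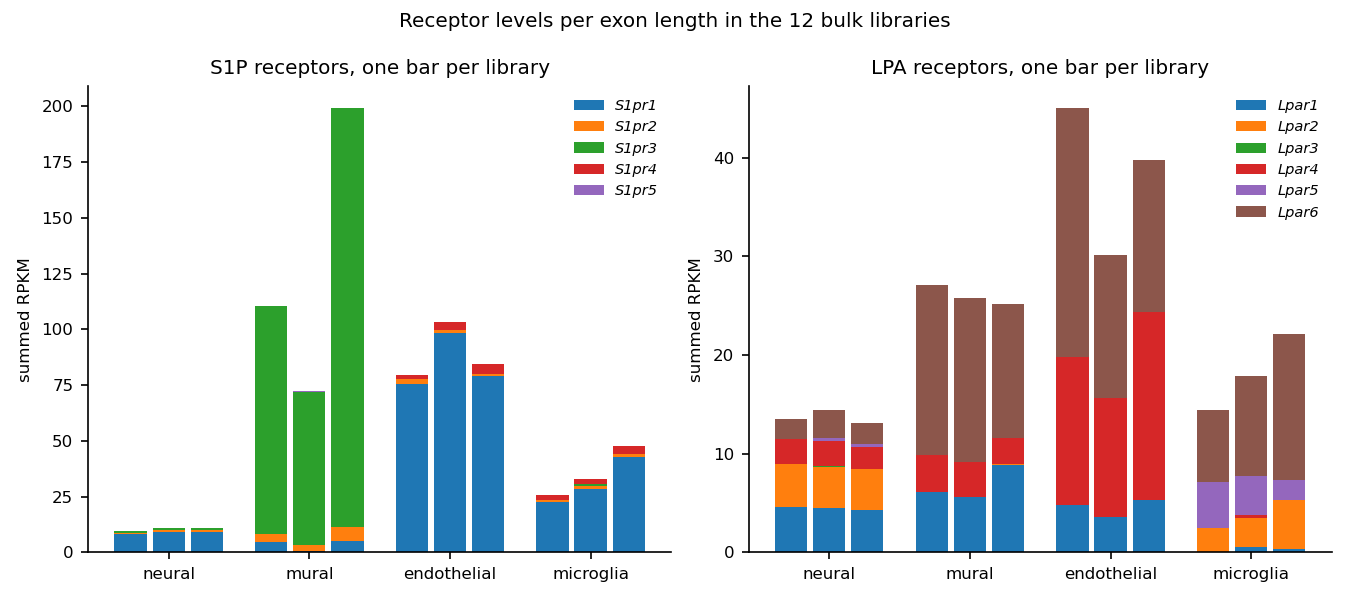
Summed RPKM of the S1P receptors (left, S1pr1 to S1pr5) and of the LPA receptors (right, Lpar1 to Lpar6), with 1 stacked bar per bulk library and a colour per receptor. On average S1pr3 fills 93.9% of the mural S1P bars and S1pr1 at least 83.1% of those in the other 3 populations, while no LPA receptor exceeds 60.7% on average.

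The LPA receptors were more evenly mixed. Summed over Lpar1 to Lpar6, they came to 38.3 ± 7.54 RPKM (SD, n = 3) in endothelial cells, 26.0 ± 1.01 in mural cells, 18.1 ± 3.84 in microglia and 13.7 ± 0.70 in neural cells. Lpar6 was the largest part in mural cells (60.7%), microglia (58.1%) and endothelial cells (47.6%), where Lpar4 added 40.4%. Neural cells held Lpar1 (32.6%), Lpar2 (30.9%), Lpar4 (17.8%) and Lpar6 (16.97%), and microglia held Lpar5 (20.8%) and Lpar2 (18.6%). Lpar5 was also listed in 2 neural libraries, at 0.307 and 0.288 RPKM against 1.97 to 4.59 in microglia. As shares of normalized counts, not divided by length, Lpar5 made up 7.07% in microglia and Lpar2 (36.8%) exceeded Lpar1 (28.5%) in neural cells.

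Lpar1, the first LPA receptor described, lies on chromosome 4 (58435255 to 58553898, minus strand). Its levels were 725, 691 and 985 normalized counts in mural libraries, 639.7, 457 and 710.4 in endothelial ones, 493, 486 and 477 in neural ones and 4.75, 81.8 and 42.8 in microglial ones. No pair of mural, endothelial and neural cells passed the test against each other, and their libraries were above every microglial library. Microglia were lower than the mean of the others (log2 -4.47 ± 0.62, limma adjusted p = 0.000154). Mural cells were higher (1.99 ± 0.62, limma adjusted p = 0.0246), a call lost without any 1 of the mural libraries (adjusted p = 0.0628, 0.0601 and 0.0863 in the order of brains). The endothelial value (1.43, limma adjusted p = 0.0861) passed with quantile normalization (adjusted p = 0.0436), by DESeq2 (1.24, adjusted p = 0.0478) and without library Mi-340 (1.06, adjusted p = 0.00885) or Mi-343 (1.70, adjusted p = 0.0251). In the wells Lpar1 was found in 7.56% of endothelial, 6.67% of mural and 6.50% of neural wells and in 0 of 128 microglial wells, which allows up to 2.84% of such wells to hold a transcript. The bulk microglial libraries held 4, 69 and 34 reads of it. Its level over all wells was at least 5.01-fold higher in mural than in microglial wells, with 3 transcripts over the gate as the floor.

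Lpar4, a receptor from a different branch of the receptor family than Lpar1, lies on chromosome X (106920625 to 106933900). Its promoter, the 250 bases at chrX:106920375-106920624 on the plus strand in RefSeq (GRCm38.p6), is shown to set an endothelial member beside the mural ones, with capitals as before.
Lpar4: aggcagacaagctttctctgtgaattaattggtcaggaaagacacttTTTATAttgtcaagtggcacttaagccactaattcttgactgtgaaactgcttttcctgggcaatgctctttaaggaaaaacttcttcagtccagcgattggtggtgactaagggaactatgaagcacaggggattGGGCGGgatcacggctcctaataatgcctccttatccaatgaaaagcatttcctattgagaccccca
It held 3 CpG and 43.6% GC, fewer than either mural promoter above. The GC box began 67 bases before the start, and the TATA box letters, on the reverse strand, 203 bases before it, with 12.4% of all promoters holding the latter. It also held 1 match to the E-box letters, left in lower case, 193 bases before the start. Lpar4 levels were 1992, 1520.3 and 2510 normalized counts in endothelial libraries, 439, 427 and 286 in mural ones, 266, 274 and 248 in neural ones and 4.75, 45.1 and 11.3 in microglial ones. The endothelial libraries were above all others and the microglial ones below all others. Lpar4 was higher in endothelial cells (log2 4.11 ± 0.50, limma adjusted p = 0.000101) and lower in microglia (-5.29 ± 0.50, limma adjusted p = 8.89e-06), and the difference between neural and mural cells missed the threshold (limma adjusted p = 0.506). The wells gave the same order, with 47.6% of endothelial (40.9 to 54.3%), 16.7% of mural, 11.4% of neural and 0 of 128 microglial wells. Its level over all endothelial wells was at least 66.1-fold higher than in microglial wells, with the same floor.

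Lpar6, a receptor of the same branch as Lpar4, is a gene of 1 exon on chromosome 14 (73237895 to 73243294) within the bounds of Rb1, which lies on the opposite strand and whose exons share 408 bp, or 7.56%, of the Lpar6 exon. The strand setting of the bulk counting is not given in the sources used here, so reads over those shared bases cannot be told apart. The exons of Enpp2 (345 bp, 5.97%) and Sphk1 (192 bp, 4.02%) likewise share bases with the noncoding genes Gm26684 and Gm29292 on the opposite strand. Endothelial libraries held 4251, 2349 and 2584 normalized counts, mural libraries 2567, 2578 and 1917, microglial libraries 1393, 1769 and 2456, and neural libraries 279, 382 and 296. The first 3 populations overlapped and the neural libraries were below all of them. Lpar6 was lower in neural cells (log2 -2.88 ± 0.23, limma adjusted p = 1.24e-06) and higher in endothelial cells (1.42 ± 0.23, limma adjusted p = 0.000563) and in mural cells (0.96 ± 0.23, limma adjusted p = 0.00569).

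In the wells the mural direction of Lpar6 against the mean of the others was the opposite. The bulk mural excess lay against neural cells (neural minus mural -2.88, limma adjusted p = 7.95e-06) and not endothelial cells (mural minus endothelial -0.34, limma adjusted p = 0.394). The sums of wells gave no neural call (-0.79, edgeR adjusted p = 0.123), and neural minus mural was 0.33 (edgeR adjusted p = 0.693). Neural bulk libraries were made with other kits, and the part of the kit was not tested. Lpar6 was found in 28.9% of endothelial (23.1 to 35.3%), 23.4% of microglial (16.4 to 31.7%), 12.2% of neural and 10.95% of mural wells (7.07 to 15.98%), or 58.2, 38.7, 20.7 and 16.8 CPM. Sums per plate were lower in mural cells than in the mean of the others (-1.23 ± 0.38, edgeR adjusted p = 0.0133), a call not made by DESeq2 (-1.20, adjusted p = 0.361) or without plate 2 (-1.01, adjusted p = 0.512). Mural cells were also lower than microglia there (-1.47 ± 0.44, edgeR adjusted p = 0.00546), where the bulk difference was 0.36 ± 0.28 (limma adjusted p = 0.346). The endothelial excess (1.28 ± 0.30, edgeR adjusted p = 0.000766) was not called by DESeq2 (adjusted p = 0.182) or without plate 2 (adjusted p = 0.156).

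**Figure D4:**
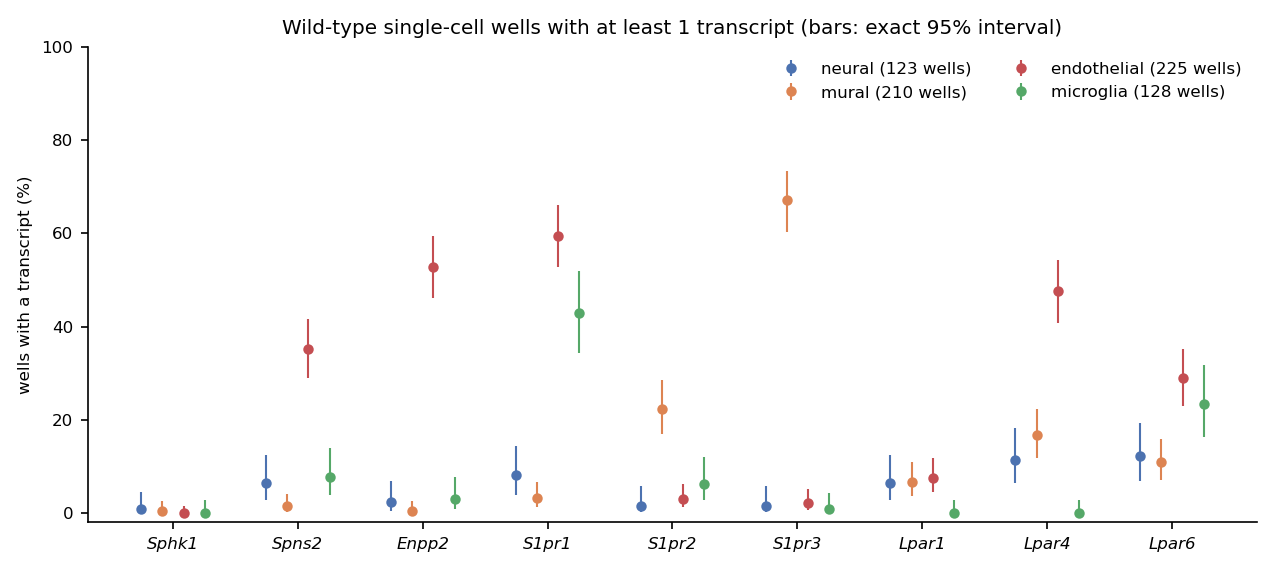
Percent of wells with at least 1 transcript of each member, by sort gate, with exact (Clopper-Pearson) 95% intervals. S1pr3 reaches 67.1% of mural wells and at most 2.22% elsewhere, and the 4 highest endothelial shares are S1pr1 (59.6%), Enpp2 (52.9%), Lpar4 (47.6%) and Spns2 (35.1%).

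Of the 9 members, 6 passed the filter on low counts in the sums of wells, where 9281 genes were tested, and Sphk1, Enpp2 and Lpar1 did not. Endothelial sums were higher for 4 members (S1pr1, Spns2, Lpar4 and Lpar6), against 16.4% of all genes, and lower for 0, against 6.96%. S1pr2 and S1pr3, the members with a negative endothelial value, had unadjusted edgeR p of 0.223 and 0.661, and DESeq2 also called 0 lower. Mural sums were higher for 3 (S1pr3, S1pr2 and Lpar4) and lower for 3 (S1pr1, Spns2 and Lpar6), against 13.5% and 8.3%. In microglia 1 was higher (S1pr1) and 2 lower (S1pr3 and Lpar4), against 22.2% and 21.2%, and in neural cells 0 were higher and 2 lower (S1pr1 and S1pr2), against 22.5% and 17.3%. Lpar4, the member with a positive neural value, had an unadjusted edgeR p of 0.154, and DESeq2 also called 0 higher. Between pairs of gates, 4 of the 6 differed between neural and endothelial sums (36.4% of all genes), 3 between neural and mural (33.1%), 3 between neural and microglial (44.3%), 6 between mural and endothelial (20.7%), 6 between mural and microglial (37.7%) and 3 between endothelial and microglial sums (36.2%). Some of these calls rested on 1 plate or on the tool. The mural excess of Lpar4 (1.79 ± 0.55, edgeR adjusted p = 0.0128) was not called without plate 1 (1.77, adjusted p = 0.191), without plate 2 (1.63, adjusted p = 0.271) or by DESeq2 (1.32, adjusted p = 0.237). The lower mural value of Spns2 (-3.26 ± 0.67, edgeR adjusted p = 0.000122) was not called without plate 2 (-2.56, adjusted p = 0.145), and the lower microglial value of S1pr3 (-3.86 ± 1.07, edgeR adjusted p = 0.00235) was not called without plate 1 (-4.20, adjusted p = 1). The lower neural value of S1pr2 (-2.28, edgeR adjusted p = 0.034) was not called by DESeq2 (-2.12, adjusted p = 0.265). Without plate 3, Lpar6 was also called lower in neural cells (-1.03, adjusted p = 0.0226 against 0.123) and higher in microglia (0.76, adjusted p = 0.0347 against 0.0744). Enpp2 failed the filter with 1 transcript-bearing well on plate 3, and without that plate its endothelial difference was 5.96 (edgeR adjusted p = 3.31e-16).

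The 4 members with the highest endothelial shares were also counted well by well. Of 225 endothelial wells, 31 held a transcript of all 4 of S1pr1, Spns2, Enpp2 and Lpar4, 45 held 3 of them, 63 held 2, 54 held 1 and 32 held none. Depth rose along with the number, from a median of 4251 transcripts in wells with none to 11751 in wells with 4. After every well was thinned to 1500 transcripts, 0 wells held all 4, 6 held 3, 27 held 2, 89 held 1 and 103 held none. Without thinning, S1pr1 and Enpp2 shared 86 endothelial wells, which were 64.2% of those with S1pr1 and 72.3% of those with Enpp2.

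The levels over the 12 bulk libraries gave each member its nearest gene by Pearson's r of log2 values, a description over libraries that share brains and kits. S1pr1 was nearest to Lhfpl2 (r = 0.979, n = 12), S1pr3 to Aldh7a1 (r = 0.959), Spns2 to Ttc14 (r = 0.981), Enpp2 to Rtf1 (r = 0.901), Lpar1 to Tcf7l1 (r = 0.983), Lpar4 to Fgd5 (r = 0.981), Lpar6 to Mbnl2 (r = 0.985), S1pr2 to Ddx41 (r = 0.939) and Sphk1, at its low counts, to Ranbp3 (r = 0.955). Between members, Lpar1 and Lpar4 were most alike (r = 0.883) and S1pr1 and S1pr3 most opposed (r = -0.896).

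The other genes of S1P reception and handling were the receptors S1pr4 and S1pr5, the kinase Sphk2 and genes of transport, breakdown and precursor supply. Of 14 listed, 12 were tested, and in mural cells 6 were lower (S1pr4, Sphk2, Sgpl1, Mfsd2a, Mfsd2b and Acer3), where 22.7% of all genes were, and 0 higher, where 19.3% were, with a median difference of -1.21 against -0.10 over all genes. The mural sums of wells, with 6 of these genes tested, were lower for 4 (Sphk2, Sgpl1, Mfsd2a and Asah1), against 8.3% of all genes, and higher for 0, against 13.5%. Acer3 was not called there, and Asah1 was not called in mural libraries. In microglial libraries 6 were higher (S1pr4, Sphk2, Sgpl1, Sgpp1, Asah1 and Acer3) and 2 lower, against 23.4% and 22.3% of all genes. Asah1, the acid ceramidase that frees sphingosine, had 13377, 11441 and 14274 normalized counts in microglial libraries and between 1218 and 3465 in the others (log2 2.79 ± 0.17, limma adjusted p = 2.35e-07), and was found in 77.3% of microglial wells against 12.2 to 21.8% of wells in the other gates. Sgpl1, the lyase that breaks S1P down irreversibly, had between 4271 and 6218 in microglial and between 4105 and 4398 in neural libraries, and at most 1131 elsewhere.

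In endothelial cells 3 of these genes were higher (S1pr4, Mfsd2a and Acer2) and 4 lower (Sgpl1, Sgpp1, Asah1 and Acer3), against 19.7% and 22.4% of all genes. In the sums of wells, where 6 genes of this list were tested, Mfsd2a was higher in endothelial cells and Sgpl1 lower (-0.88, edgeR adjusted p = 0.0368), while Sgpp1 (adjusted p = 0.11), Asah1 (adjusted p = 0.468) and Acer3 (adjusted p = 0.228) were not called. Mfsd2a, the lipid transporter of the blood-brain barrier, had 5668, 8034 and 6923 normalized counts in endothelial libraries and 702, 747 and 864 in neural ones, and at most 80.4 in the rest. Its endothelial difference was 7.01 ± 1.20 (limma adjusted p = 0.000932), and 72.9% of endothelial wells held it against 13.8% of neural wells. In neural cells 2 were higher (Sphk2 and Sgpl1) and 3 lower (S1pr4, Asah1 and Acer3), against 32.9% and 31.2% of all genes. In the sums of wells Asah1 (-1.78, edgeR adjusted p = 8.35e-05) and Acer3 (-2.37, edgeR adjusted p = 0.000285) were lower too, but neither Sphk2 nor Sgpl1 was called in neural cells, and Sgpl1 had the opposite sign there (-0.44, edgeR adjusted p = 0.31).

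Of 10 other genes of LPA synthesis, breakdown and reception, 8 were tested. In microglia 4 were higher (Lpar2, Lpar5, Plpp1 and Liph) and 2 lower (Plpp3 and Agk), against 23.4% and 22.3% of all genes, with a median of 1.07 against -0.02 over all genes. Liph, a phospholipase that makes LPA at the cell surface, had 477, 416 and 392 normalized counts in microglial libraries and at most 9.39 in the others. Plpp3, a surface phosphatase that breaks down LPA and S1P, had between 2573 and 2802 in neural and between 2285 and 3025 in endothelial libraries, between 756 and 894 in mural ones and at most 138 in microglia, and it was higher in neural cells (2.31 ± 0.26, limma adjusted p = 2.17e-05) and in endothelial cells (2.25 ± 0.26, limma adjusted p = 7.25e-05). Among endothelial cells 1 was higher (Plpp3) and 4 lower (Lpar2, Lpar5, Liph and Pla1a), against 19.7% and 22.4% of all genes, and among neural cells 2 were higher (Lpar2 and Plpp3) and 2 lower (Plpp1 and Pla1a), against 32.9% and 31.2%. In mural cells 2 were higher (Pla1a and Agk) and 3 lower (Lpar2, Lpar5 and Liph), against 19.3% and 22.7%. Pla1a, a secreted phospholipase, had 383, 241 and 348 normalized counts there against at most 61.7 elsewhere. In the sums of wells 2 of these genes were tested, and the endothelial, neural and microglial calls of Plpp3 and the microglial call of Plpp1 were made there too. Plpp1 was lower in mural wells (-1.45, edgeR adjusted p = 0.00682) and was not called in neural ones (-0.69, edgeR adjusted p = 0.217).

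**Figure D5:**
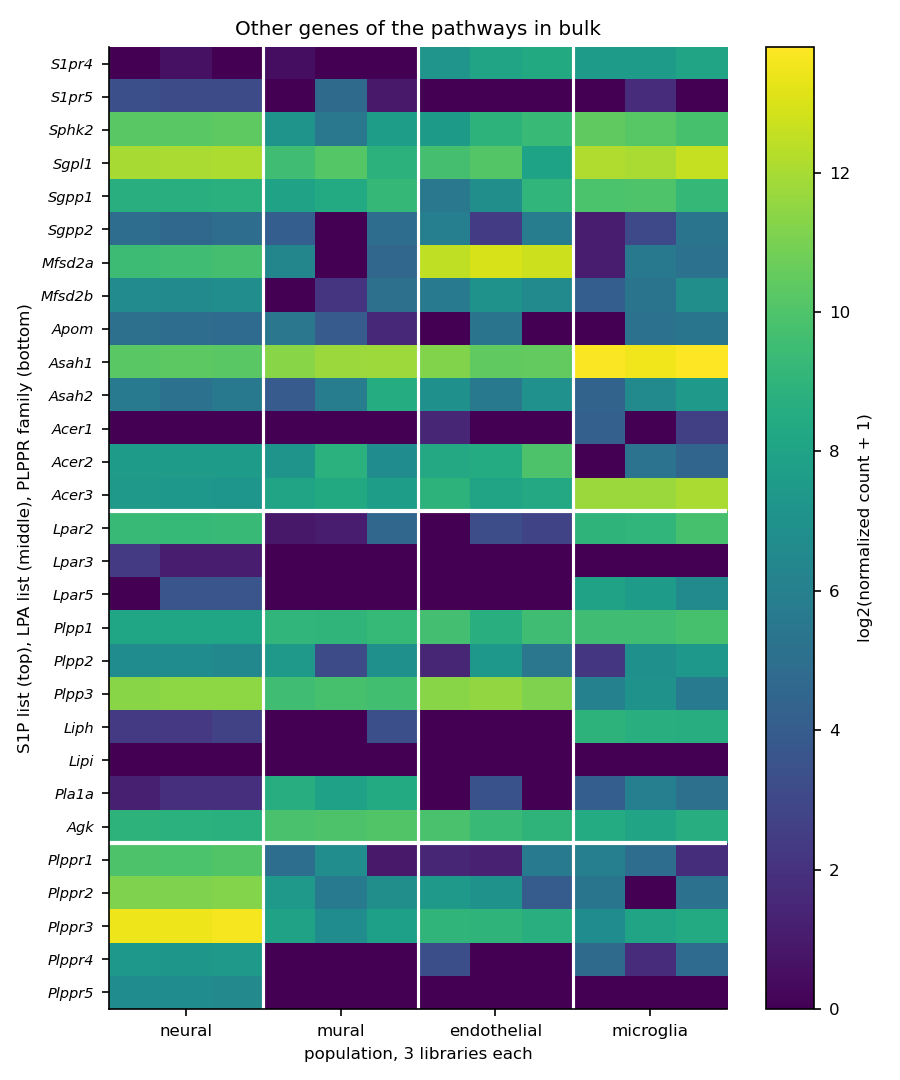
Levels of the other listed genes of S1P handling (top rows), LPA handling (middle) and the PLPPR family (bottom) in the 12 bulk libraries, as a colour for log2(normalized count + 1), with 3 columns per population. Asah1 and Liph stand out in microglia (means 13031 and 428), Mfsd2a in endothelial cells (mean 6875) and Pla1a in mural cells (mean 324).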

How the data were processed

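The bulk files that the authors deposited hold normalized counts, a linear signal, for 12 libraries. The submitters' processing notes name STAR, featureCounts and DESeq2 with mm10, and BWA 0.6.2-r126 for the wells, without saying which did what. Every value up to a low limit was a whole number of reads times 1 factor per library (100% of 124078 values, within 0.01), so whole reads were recovered. For the wells the authors deposited expected transcript counts, corrected for identifiers drawn more than once. Wells of Mof knockout brains, whose gates are not given, were left out.

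The 4 populations were fitted in limma 3.58.1 (R 4.3.3) after log2 transformation with a pseudocount of 1 and a mean-dependent prior variance, over genes with a mean of at least 10, two-sided, with Benjamini-Hochberg adjustment over all genes tested. The wells were summed by gate and plate, giving 12 sums of 50756 to 959426 transcripts, rounded, and compared with edgeR 4.0.16 (quasi-likelihood test, TMM, its own filter). DESeq2 1.42.0 and edgeR on whole bulk reads, other pseudocounts, filters and scalings, and leaving out each library or plate were the alternatives. RPKM used the union of exons in GENCODE vM21 (GRCm38), and gene positions are from it. A single cell was sorted into each well and no doublet caller was run. Shares carry exact 95% intervals, which cover counting error only. On simulated data with 100 genes changed 4-fold, limma recovered 100 (bulk endothelial comparison, 19727 genes) and edgeR 99 (endothelial sums, 8413 genes). In these runs 11 and 7 unchanged genes were called. Every simulated gene had the same relative spread, and the changed genes were drawn from the better expressed ones. The recovery therefore does not carry over to members with a wider spread or low counts.

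The study states that the bulk libraries came from 3 wild-type brains, so equal library numbers were taken as 1 brain. Deviations of same-numbered libraries correlated between -0.054 and 0.0801, and those of sums of the same plate between -0.0342 and 0.0962. The fit with the brain as a block is given beside a result where it changes the call. The genes named are the 9 members and the pathway lists, with the 3 genes nearest to each member by Pearson's r computed and the nearest printed. The members and lists were chosen with earlier results of these data known. RefSeq promoters were found for 7 of the 9 members.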

Additional observations from a re-analysis of the deposited data

Results flagged for a closer look

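A further gate, PDGFRβ medium or low, entered no comparison because its cells are not assigned to a population by the labels. It held 25 wells, of which 23 had more than 1500 transcripts, with a median of 5718. For 6 members, transcripts exceeded the limit that a count of 0 allows. S1pr1 was found in 34.8% of the wells (exact 95% interval 16.4 to 57.3%), S1pr3 in 26.1% (10.2 to 48.4%), Lpar4 in 26.1%, Lpar6 in 21.7%, Lpar1 in 17.4% and Enpp2 in 13.0% (2.78 to 33.6%). The Enpp2 share rests on 3 wells, 1 of which held 10 of the 14 transcripts, and S1pr1 was also found in 43.0% of microglial wells. S1pr2 was found in 3 wells, and Spns2 and Sphk1 in 0 of 23 wells, which allows up to 14.8% of such wells to hold a transcript. Differences between this gate and the others were not tested.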

How the results depend on the processing

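With each member taken in the population with its highest mean level, no alternative run reversed a call. Of 178 such alternative values in bulk 175 kept their side of the threshold and 3 lost it (Lpar1 in mural cells), and in the sums of wells 37 of 39 kept it and 2 lost it (Lpar6 in endothelial cells). Left out of these bulk numbers are Enpp2 by DESeq2, which gave no adjusted p, and Sphk1 under the stricter filter on the mean, which it did not pass. Over all members and all comparisons in bulk, single populations and pairs together, the alternatives lost 45 calls, gained 43 and reversed 0, of which those given with the results are a part. Of 24 receptor shares, 12 moved by more than 1 SD when counts were not divided by length (S1pr1 in neural cells from 83.1% to 71.95%, for example). For the counts of members, quantile normalization gave 2 higher in microglia in place of 1, edgeR on whole reads gave 2 lower in microglia in place of 4, and DESeq2 on the sums gave 1 lower in neural cells in place of 2; the cause was not tested. Leaving out 1 library gave 0 to 2 members higher in microglia and 1 to 3 higher in neural cells, and leaving out 1 plate gave 1 to 3 lower in neural, 1 to 3 higher in mural, 1 to 4 lower in mural, 1 to 2 higher in microglia and 1 to 2 lower in microglia. With the replicate block, the brain in bulk and the plate in the wells, the counts stayed within 1.5 times of those without it (for example 5 members higher in endothelial and 4 in mural bulk libraries), and the changed calls of single members are given with the results. Over all genes, edgeR on whole reads called 4065 higher and 2483 lower in endothelial cells (62.1% higher) where limma called 3892 and 4430, and 4236 and 2826 in mural cells (60.0% higher) where limma called 3821 and 4485, and DESeq2 called 4910 and 3522 in endothelial cells (58.2% higher). Quantile normalization moved the median of all genes in the neural comparison from 0.09 to -0.16 and in the mural one from -0.10 to 0.04, and over the 25175, 23179 and 22518 genes that DESeq2 tested the neural, mural and endothelial medians were -0.34, -0.30 and 0.16, where limma over 19765 genes gave 0.09, -0.10 and -0.12. Tool and genes changed together there. These shifts are smaller than any member difference called in those comparisons. Without plate 1 or plate 2 the sums gave 647 and 653 higher endothelial genes in place of 1521. Shares of wells depend on depth, and after thinning to 1500 transcripts S1pr3 was found in 27.6% of mural wells and Enpp2 in 24.0%, S1pr1 in 22.7%, Lpar4 in 14.7%, Spns2 in 10.2% and Lpar6 in 7.11% of endothelial wells. Counts were lowest for Sphk1, and in the wells for Lpar1, for Enpp2 outside endothelial cells and for all members on plate 3.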

Other observations

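The PLPPR family, membrane proteins related to the phosphatases that degrade LPA, was neural: 5 of 5 genes were higher in neural libraries, where 32.9% of all genes were, with a median log2 difference of 5.72 against 0.09 over all genes. Plppr3 had 11036, 11074 and 12333 normalized counts in neural libraries and at most 526 in any other, and was found in 52.0% of neural wells against 0 to 4.29% of wells in the other gates. Neural libraries were made with other kits, which cannot be told apart from the population.

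Of 14 genes of sphingolipid base and ceramide synthesis 11 were tested, and 3 were higher in endothelial cells (Sptlc2, Sptssa and Degs1) and 0 lower, against 19.7% and 22.4% of all genes. In mural cells 5 were higher and 3 lower (19.3% and 22.7% of all genes), in neural cells 2 and 4 (32.9% and 31.2%) and in microglia 1 and 2 (23.4% and 22.3%). The sums of wells, where 9 were tested, gave other counts. In microglia 5 were higher there (Sptlc1, Sptlc2, Cers2, Cers6 and Degs1) and 1 lower (Cers4), against 22.2% and 21.2% of all genes, and of the genes higher in bulk only Degs1 was called in endothelial cells and only Cers4 in mural cells. Sptlc2, a subunit of the enzyme that starts the pathway, had 2592, 3773 and 3027 normalized counts in endothelial and 2865, 2809 and 4138 in microglial libraries, against 889 to 1580 in the others.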
